A study of Mus musculus with 18 samples.

Results

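The 10 genes described here are 4 ErbB receptors (Egfr, Erbb2, Erbb3 and Erbb4) and 6 of their ligands (Areg, Ereg, Btc, Hbegf, Tgfa and Nrg1), out of 55450 genes in the count file. They were chosen by symbol, and the family was chosen from the measured values because Egfr was far lower in one T121 tumor model than in the other. All 10 passed the filter on low counts that left 19186 genes for testing. RNA was sequenced from 18 female C57Bl/6 mice: 15 mammary tumors, 5 in each of 3 models, and 3 normal mammary glands.

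B1/P/Rbf tumors arose in Brca1fl/fl, Trp53fl/fl mice that also carried the TgK18GT121Tg/+ transgene. B1/P tumors had the same floxed alleles and no transgene, and P/Rbf tumors had Trp53fl/fl and the transgene with Brca1 intact. All 3 tumor groups therefore shared the loss of Trp53, and all were started by Cre-expressing adenovirus (Ad5-CMV-Cre) injected into ducts of a mammary gland in adult females. The transgene is driven by the cytokeratin 18 promoter, which is active in epithelial cells, and its product T121 is a fragment of the SV40 large T antigen that inactivates the proteins pRb, p107 and p130 by binding them. The methods give the substrain as C57Bl/6 J. The normal glands came from wild type mice of the same strain, for which no adenovirus or age is given in the labels. Tumors are named below by model and mouse number.

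ErbB receptors are tyrosine kinases at the cell surface that work as pairs. Egfr binds amphiregulin (Areg), epiregulin (Ereg), betacellulin (Btc), heparin-binding EGF (Hbegf) and TGF-alpha (Tgfa), Erbb2 has no known ligand of its own and serves as the preferred partner of the others, Erbb3 has a weak kinase and signals through its partner, and Erbb3 and Erbb4 bind the neuregulins such as Nrg1. The ligands are made as membrane-bound precursors and are released by proteases. In the mammary gland Areg is known as the estrogen-induced ligand that drives the growth of ducts, and Erbb4 as a receptor of the lactating gland.

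Stretches of 250 bases just before the transcription start, from RefSeq on GRCm38.p6, are shown for Egfr, whose level was lowest in B1/P/Rbf tumors, and for Areg and Btc, whose levels moved together from tumor to tumor. Capitals mark a GC box (GGGCGG), a cAMP response element (TGACGTCA), both sought on both strands, and a TATA box (TATAAA, as printed only). The Egfr stretch is chr11:16751953-16752202 on the plus strand, that of Areg is chr5:91139349-91139598 on the plus strand, and that of Btc is chr5:91402995-91403244 on the minus strand.
Egfr: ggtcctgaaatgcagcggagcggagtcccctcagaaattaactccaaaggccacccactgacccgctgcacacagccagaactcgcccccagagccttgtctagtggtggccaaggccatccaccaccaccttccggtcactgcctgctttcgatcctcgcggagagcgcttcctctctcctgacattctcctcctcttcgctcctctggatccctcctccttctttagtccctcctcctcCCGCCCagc
Areg: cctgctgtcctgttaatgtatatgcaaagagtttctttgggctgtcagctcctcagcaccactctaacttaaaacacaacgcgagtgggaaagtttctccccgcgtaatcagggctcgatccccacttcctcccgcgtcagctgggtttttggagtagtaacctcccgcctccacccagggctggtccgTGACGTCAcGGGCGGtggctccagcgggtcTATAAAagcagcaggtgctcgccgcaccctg
Btc: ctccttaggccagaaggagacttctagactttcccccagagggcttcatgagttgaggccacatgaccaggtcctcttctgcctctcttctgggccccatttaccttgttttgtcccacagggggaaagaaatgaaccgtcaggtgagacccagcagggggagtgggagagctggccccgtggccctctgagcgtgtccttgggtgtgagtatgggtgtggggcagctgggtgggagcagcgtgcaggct

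Areg held all 3 motifs, with the cAMP response element beginning 61 bases before the start, the GC box 52 bases before it and the TATA box 31 bases before it. Egfr held 1 GC box, on the other strand and beginning 9 bases before the start. Btc held none of the 3. A GC box occurred in 32.7% of 32851 mouse promoter stretches of the same length, the cAMP response element in 1.55% and the TATA box in 7.59%. Of the 6 members with a stretch in the table (these 3, Erbb2, Erbb4 and Tgfa), none held the E2F letters TTTGGCGC or TTTCCCGC on either strand, which occurred in 1.3% of stretches. These matches describe letters in this window only. GC content was 60.8% for Egfr, 57.2% for Areg and 59.6% for Btc, beside a median of 52.4%.

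Total expected counts were between 27661173 and 37794889 per library, and levels are CPM, counts scaled to the size of the library, after scaling by the trimmed mean of M values (TMM). Each library is 1 mouse, so tests measure the spread between mice. A gene was called when the Benjamini-Hochberg adjusted p of edgeR's quasi-likelihood test, over all 19186 genes, was 0.05 or less. Settings are named where they change a call: a stricter filter (log2 CPM of 6 or more in 6 or more samples), and a term for the library set. Libraries numbered 1 to 8 were the 5 B1/P/Rbf and 3 of the B1/P tumors, those numbered 9 to 18 were all others, and no label or method names the sets as a batch. The normal glands held far more RNA of other tissues than the tumors did. The 8 skeletal muscle markers summed to between 24508.5 and 49257 CPM in the glands and to at most 25.7 CPM in 14 of the 15 tumors, with 664 CPM in B1/P tumor 248662, the 8 adipocyte markers to at least 20408 CPM in the glands and at most 334 CPM in tumors, and the 8 lymphocyte markers to at least 382 CPM and at most 36.2 CPM. All 24 of these markers were called lower in each tumor model than in gland, and no marker of the 3 lists was at 0 in every library of a group. Their part in the gland comparisons was not tested. In these bulk samples fewer cells of a type and less RNA per cell cannot be told apart. Trp53 was between 54.4 and 71.8 CPM in glands and between 6.75 and 24.3 CPM in tumors. Brca1 was between 4.61 and 5.99 CPM in glands, below every tumor. It was between 44.9 and 116 CPM in P/Rbf tumors and between 8.13 and 27.9 CPM in 9 of the 10 tumors with floxed Brca1. The tenth, B1/P/Rbf tumor 208863, had 45.0 CPM. By RT-qPCR the study found Brca1 only partly lost in that tumor. Since the count covers every exon it does not check the deletion.

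Egfr, at chr11:16752203-16918158 on GRCm38, was lowest in B1/P/Rbf tumors. Its level there was 10.6, 2.81, 14.1, 6.04 and 5.71 CPM in tumors 208855, 208857, 208863, 209490 and 210906. In P/Rbf tumors it was 31.8, 107, 17.6, 91.0 and 32.6 CPM. The highest B1/P/Rbf tumor lay below the lowest P/Rbf tumor, and P/Rbf tumors differed among themselves by 6.12-fold. The fitted log2 fold change was −2.84 ± 0.52 (SE), a 7.14-fold lower level. This is the contrast on which the family was chosen, so it is given without a test. Leaving out each library in turn moved it between −3.16 and −2.46, and the other settings between −2.95 and −2.62. All B1/P/Rbf tumors were in the first set of libraries and all P/Rbf tumors in the second. From these tumors alone, model and library set cannot be told apart. Tumor 208863, the one at 45.0 CPM of Brca1, had the most Egfr of its group, and the log2 fold change without it was −3.16. Tumor 208855, with the least Brca1 of the group at 21.1 CPM, had 10.6 CPM of Egfr. A relation between Brca1 and Egfr was not tested.

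In B1/P tumors Egfr was 40.1, 88.1, 89.2, 37.7 and 96.1 CPM, and in normal glands 33.1, 20.9 and 26.3 CPM. All 5 B1/P/Rbf tumors lay below every gland and all 5 B1/P tumors lay above every gland. Egfr was 8.95-fold lower in the B1/P/Rbf model than in the B1/P one (log2 fold change −3.16 ± 0.53) and 3.41-fold lower than in glands (−1.77 ± 0.55), both given without a test because they share the B1/P/Rbf tumors. The one comparison free of both T121 models was B1/P against gland, where the log2 fold change was 1.39 ± 0.59 and the adjusted p of 0.0789 missed the threshold. DESeq2 (adjusted p = 0.0449), limma-voom after quantile normalization (0.0401), edgeR without TMM (0.0259) and a fit of these groups alone (0.0244) called it, while a term for the library set gave an adjusted p of 0.182 in edgeR. Within the first set of libraries alone, all 5 B1/P/Rbf tumors (2.81 to 14.1 CPM) lay below the 3 B1/P tumors (40.1 to 89.2 CPM). This again uses the B1/P/Rbf values on which the family was chosen and is a description. It does not bear on the P/Rbf tumors, which were all in the second set. In order of mean level the groups were B1/P tumors at 70.2 ± 28.8 CPM (SD, n = 5), P/Rbf tumors at 56.1 ± 40.2 CPM (n = 5), glands at 26.8 ± 6.10 CPM (n = 3) and B1/P/Rbf tumors at 7.85 ± 4.46 CPM (n = 5). B1/P and P/Rbf tumors overlapped, as did P/Rbf tumors and glands.

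**Figure D1:**
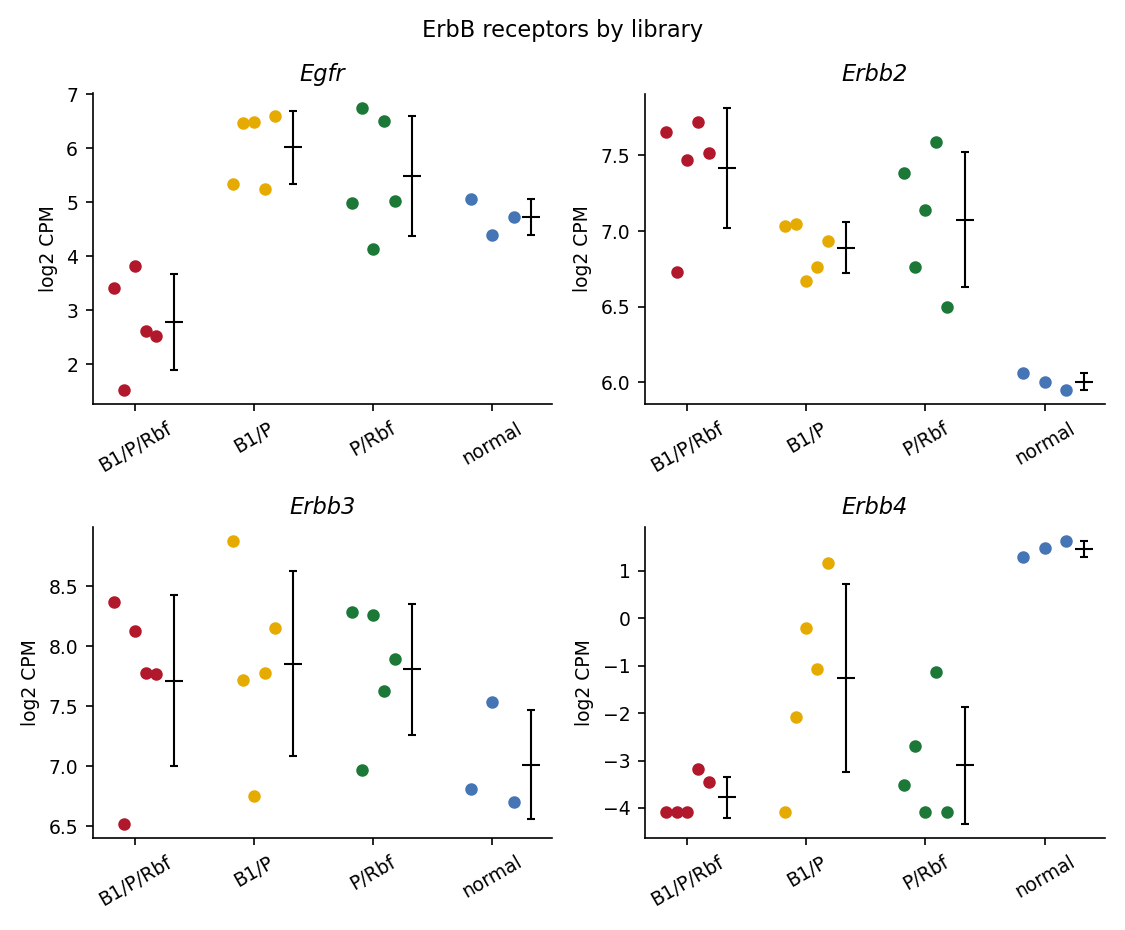
Log2 CPM (prior count of 2) of the 4 receptors in each library of the 3 tumor models (n = 5 each) and normal gland (n = 3), with 1 point per mouse and the bar at right showing mean ± SD. The 5 B1/P/Rbf tumors lie below all other libraries for Egfr, all tumors lie above the glands for Erbb2, and all lie below them for Erbb4.

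Erbb2, the receptor amplified in HER2-positive human breast cancer, was higher in every tumor than in every gland. It spans chr11:98412470-98437716 and was 66.7, 64.0 and 61.7 CPM in glands. It was 201, 106, 177, 211 and 183 CPM in B1/P/Rbf tumors, while B1/P tumors held 131, 132, 101.8, 109 and 122 CPM and P/Rbf tumors 167, 109, 141, 193 and 90.1 CPM. The rise over gland was 2.74-fold in B1/P/Rbf (log2 fold change 1.45 ± 0.26, edgeR adjusted p = 0.000348), 2.18-fold in P/Rbf (1.13 ± 0.26, adjusted p = 0.00235) and 1.86-fold in B1/P tumors (0.89 ± 0.25, adjusted p = 0.0117). Among tumors the groups overlapped. B1/P/Rbf exceeded B1/P tumors by a log2 fold change of 0.56 ± 0.21 with an edgeR adjusted p of 0.0794, which became 0.0308 without tumor 208857, and P/Rbf against B1/P gave 0.23 ± 0.21 (adjusted p = 0.462). The call against gland in B1/P tumors was lost without gland 330156 (adjusted p = 0.0569), with the library-set term (0.0519) and with the stricter filter on low values (0.0625).

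Genes beside Erbb2 on chromosome 11 were read for the same direction. The 10 tested genes nearest to Erbb2, 5 on each side, were compared with B1/P tumors. In B1/P/Rbf 3 were called higher (Zpbp2, Grb7 and Pgap3) and none lower. In P/Rbf 3 were called higher (Ppp1r1b, Grb7 and Pgap3) and none lower. Over all genes 7.36% and 8.43% were called higher, in the same order. Zpbp2 was scarce, with a mean of 0.0608 CPM for the B1/P model and 0.728 CPM for the B1/P/Rbf model. The counts are a description, and a shift of the region as a whole was not tested. Grb7, an adaptor that binds ErbB receptors, starts 34 kb beyond the Erbb2 start and was 68.9 to 120.6 CPM in B1/P/Rbf, 49.5 to 109 CPM in P/Rbf and 20.6 to 43.7 CPM in B1/P tumors. Over B1/P its log2 fold change was 1.45 ± 0.26 in B1/P/Rbf (edgeR adjusted p = 0.00185) and 1.37 ± 0.26 in P/Rbf tumors (adjusted p = 0.0026). Pgap3 rose over B1/P by 0.81 ± 0.19 (adjusted p = 0.00932) and 0.62 ± 0.19 (adjusted p = 0.0321). Stard3 and Mien1, which also flank Erbb2, were not called between tumor models. Over the 15 tested genes of a wider list around Erbb2, the median log2 fold change was 0.33 in B1/P/Rbf and 0.33 in P/Rbf against B1/P tumors, beside −0.06 and −0.05 over all genes.

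Erbb3 was the most abundant receptor per length in every group and was not called in any comparison. Erbb3 spans chr10:128567523-128589652. The range was 91.6 to 332 CPM among B1/P/Rbf tumors, 107 to 470 CPM among B1/P tumors, 125 to 313 CPM among P/Rbf tumors and 104 to 186 CPM among glands. These ranges overlapped in every pair of groups. The log2 fold change over gland was 0.77 ± 0.45 in B1/P/Rbf (edgeR adjusted p = 0.187), 0.95 ± 0.45 in B1/P (0.112) and 0.82 ± 0.45 in P/Rbf tumors (0.159). In B1/P tumors the adjusted p was 0.0464 without tumor 246361 and 0.0325 without TMM.

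Erbb4, at chr1:68032186-69108059, was at or near 0 in most tumors of the T121 models. It had 61, 83 and 89 counts in the glands (2.38, 2.72 and 3.01 CPM). In B1/P/Rbf tumors it had 0, 0, 0, 2 and 1 counts, in P/Rbf tumors 1, 3, 0, 15 and 0 counts, and in B1/P tumors 0, 6, 32, 14 and 69 counts. Every tumor lay below every gland, and within the B1/P group the level went from 0 to 2.18 CPM. Set against a floor of 3 counts per library, B1/P/Rbf tumors were at least 32.0-fold lower than glands (edgeR adjusted p = 0.00134) and at least 8.46-fold lower than B1/P tumors (adjusted p = 0.0169), although 1 B1/P tumor also had no count. Without B1/P tumor 248662 the latter adjusted p was 0.0447. P/Rbf tumors were lower than glands by a log2 fold change of −4.63 ± 1.28 (adjusted p = 0.00906), which was −6.32 without tumor 287822 (adjusted p = 0.00234), and B1/P tumors by −1.92 ± 1.17, which did not pass (adjusted p = 0.217). The value for P/Rbf against B1/P was −2.72 ± 1.15 (adjusted p = 0.103), and −4.40 without tumor 287822 (adjusted p = 0.0291). With the library-set term the adjusted p rose to 0.0996 against gland and to 0.0661 against B1/P for the B1/P/Rbf tumors, and limma-voom gave 0.0681 for the latter.

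Summed over the 4 receptors and scaled by length (CPM per kb of exon), Egfr made up 0.918% ± 0.362 (SD) of receptor transcripts in B1/P/Rbf tumors (n = 5), 9.65% ± 5.51 in B1/P, 7.78% ± 6.82 in P/Rbf tumors and 6.63% ± 2.27 in glands. This share uses the Egfr values on which the family was chosen and is a description. Erbb2 and Erbb3 together supplied the rest. Erbb2 made up 48.1% ± 6.90 in B1/P/Rbf, 33.5% ± 7.45 in B1/P and 37.6% ± 6.99 in P/Rbf tumors and 33.9% ± 5.81 in glands, and Erbb3 51.0% ± 6.63, 56.7% ± 12.5, 54.6% ± 12.3 and 58.9% ± 8.12. Erbb4 was at or below 0.771% in every library.

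Among the 6 ligands, Areg was the most abundant per length in every gland and every B1/P/Rbf tumor, and the least even among B1/P tumors. Epgn, a ligand outside the 6, exceeded Areg in B1/P/Rbf tumor 208857, at 32.8 against 30.8 CPM per kb. It spans chr5:91139599-91148432. It was 82.6, 196 and 106 CPM in glands, and 55.4, 37.5, 40.9, 273 and 74.0 CPM in B1/P/Rbf tumors. Among B1/P tumors it was 3.85, 26.3, 4.40, 1.83 and 105 CPM, a span of 57.3-fold. In P/Rbf tumors it was 197, 16.3, 90.2, 23.6 and 245 CPM. The B1/P tumors with least Areg (225068, 246361 and 255232) lay below every other library of the study, while tumor 248662 lay within the range of the glands. No comparison of Areg was called. The log2 fold change was 1.77 ± 0.99 in B1/P/Rbf against B1/P (edgeR adjusted p = 0.239), 2.01 ± 1.00 in P/Rbf against B1/P (0.162) and −2.18 ± 1.10 in B1/P against gland (0.134, and 0.0143 in limma-voom). These 3 values rested on tumor 248662: without it they were 3.40 (edgeR adjusted p = 0.0293), 3.65 (0.0206) and −3.82 (0.0113). B1/P/Rbf and P/Rbf tumors differed from gland by −0.42 ± 1.10 and −0.17 ± 1.11, both within the spread and both changing sign in some settings.

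Btc, a ligand of both Egfr and Erbb4, lies beyond Areg in a cluster of ligand genes on chromosome 5 (GRCm38) with the order Epgn, Ereg, Areg and Btc, itself at chr5:91357261-91402994. Its level was 11.2, 11.5, 13.1, 22.9 and 10.8 CPM in B1/P/Rbf tumors and 1.3, 4.15, 1.83, 1.09 and 9.49 CPM in B1/P tumors. All 5 B1/P/Rbf tumors lay above all 5 B1/P tumors and above the glands, the latter at 6.29, 9.82 and 9.34 CPM. The log2 fold change over B1/P was 1.96 ± 0.71, with an edgeR adjusted p of 0.0675. DESeq2 (adjusted p = 0.0201) and limma-voom (0.0301) called it, as did edgeR without tumor 248662 (0.0197) or without tumor 287845 (0.0234). P/Rbf tumors went from 0.599 CPM in tumor 287845 to 25 CPM in tumor 290845, overlapped every other group, and differed from B1/P by 1.62 ± 0.70 (edgeR adjusted p = 0.112, and 0.0302 or 0.0295 without tumor 248662 or 287845).

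Areg and Btc were high and low in the same tumors. With each model's mean removed, their log2 CPM over the 15 tumors had Pearson's r = 0.832 (two-sided permutation within models, p = 0.00013) and Spearman's rho = 0.864 (permutation p = 0.00033), which were 0.00364 and 0.00924 after adjustment over 28 pairs of the 8 members with a mean of at least 1 CPM. Within models of 5 tumors r was 0.866 in B1/P/Rbf, 0.993 in B1/P and 0.832 in P/Rbf tumors. Leaving out the 2 tumors farthest from the median of Areg gave r = 0.804. No other pair had an adjusted p of 0.05 or less. Next came Btc with Tgfa (r = −0.71), Erbb2 with Erbb3 (r = 0.581) and Hbegf with Nrg1 (r = −0.572), each with a permutation adjusted p of 0.308 for r. Egfr and its ligands Areg, Btc, Hbegf and Tgfa gave r between −0.27 and 0.38 over the same tumors.

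**Figure D2:**
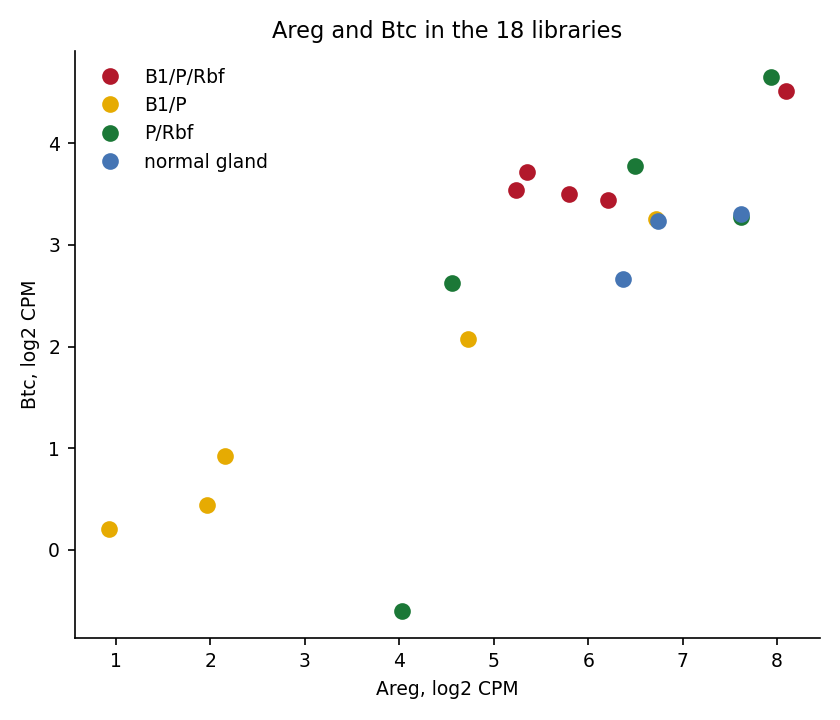
Log2 CPM (prior count of 2) of Btc against Areg, with 1 point per library, coloured by group. The 3 B1/P tumors with least Areg hold the lower left, and P/Rbf tumor 287845, with 0.599 CPM of Btc, lies below the rest at its level of Areg.

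The 8 markers of hormone-sensing luminal cells (Esr1, Pgr, Prlr, Foxa1, Cited1, Tbx3, Wnt4 and Tnfsf11) moved between the same groups. Their summed level was 73.4 to 462 CPM in B1/P tumors, 1102 to 1592 CPM in B1/P/Rbf, 716 to 1338 CPM in P/Rbf tumors and 1025 to 1357 CPM in glands, and none of the 8 was at 0 throughout a group. Of the 8, 3 were called higher in B1/P/Rbf and 5 in P/Rbf than in B1/P tumors. Tumor 248662, with the most Areg and Btc of the B1/P tumors, also had the most of these markers, while tumor 225070, second in Areg and Btc, had the least, at 73.4 CPM. The basal and myoepithelial markers summed to 53.2 to 337 CPM in B1/P/Rbf, 372 to 2190 CPM in B1/P and 78.4 to 1461 CPM in P/Rbf tumors. In glands they summed to 312 to 457 CPM. Of these 8, 3 and 2 were called lower against B1/P tumors, in B1/P/Rbf and P/Rbf in that order. The 8 epithelial markers summed to 813 to 3529 CPM in B1/P, 3476 to 7644 CPM in B1/P/Rbf and 7036 to 13292 CPM in P/Rbf tumors. In glands they summed to 2344 to 2964 CPM, and 3 and 6 of them were called higher in the T121 models against B1/P. The 8 fibroblast markers summed to 2546 to 12773 CPM in B1/P, 833 to 4739 CPM in B1/P/Rbf and 1256 to 4000.1 CPM in P/Rbf tumors. In glands they summed to 1400 to 2617 CPM, and 1 and 3 were called lower in the T121 models against B1/P. Of the 8 skeletal muscle markers 5 and 6 were called lower against B1/P, where tumor 248662 alone had over 25.7 CPM. Calls of Areg, Btc and Nrg1 turned on this tumor, which also had the most Erbb4 of its group. The part of these cell types in the levels of the members was not tested.

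Tgfa rose in every tumor model. It spans chr6:86195223-86275719 and was 9.5, 10.7 and 10.4 CPM in glands. B1/P/Rbf tumors held 41.4, 28.3, 63.6, 93.1 and 47.6 CPM, B1/P tumors 165, 72.7, 77.1, 145 and 69.1 CPM, and P/Rbf tumors 27.5, 383, 53.8, 75.4 and 55.3 CPM. Every tumor lay above every gland. The rise over gland was 10.4-fold in B1/P (log2 fold change 3.38 ± 0.76, edgeR adjusted p = 0.00259), 11.7-fold in P/Rbf (3.54 ± 0.76, adjusted p = 0.00159) and 5.37-fold in B1/P/Rbf tumors (2.43 ± 0.72, adjusted p = 0.0138). Without tumor 287845 the P/Rbf value was 2.38 (SE 0.45, edgeR adjusted p = 0.00069). The call in B1/P/Rbf tumors was lost without gland 330154 (adjusted p = 0.0530) or 330156 (0.0515) and with the library-set term (0.117). Between tumor models Tgfa was not called, with −0.95 ± 0.56 in B1/P/Rbf against B1/P (edgeR adjusted p = 0.262) and 0.17 ± 0.56 in P/Rbf against B1/P (0.858). The P/Rbf mean of 119 CPM rested on tumor 287845, at 383 CPM.

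Hbegf, a ligand released from the cell surface by shedding, rose in all 3 models. It spans chr18:36504927-36515805. It was 3.87, 2.26 and 3.35 CPM in glands, 8.17 to 15.9 CPM in B1/P/Rbf, 4.70 to 28.7 CPM in B1/P and 5.71 to 19.0 CPM in P/Rbf tumors. No tumor overlapped the glands. The log2 fold change was 2.09 ± 0.53 in B1/P (edgeR adjusted p = 0.00585), 1.96 ± 0.52 in P/Rbf (0.00715) and 1.89 ± 0.52 in B1/P/Rbf tumors (0.00918). Against B1/P the values were −0.20 ± 0.42 in B1/P/Rbf and −0.12 ± 0.42 in P/Rbf tumors (edgeR adjusted p = 0.787 and 0.861), within the spread. With the library-set term the adjusted p against gland was 0.496 in B1/P/Rbf and 0.0915 in B1/P tumors.

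Nrg1, the ligand of Erbb3 and Erbb4, lies at chr8:31814551-32884029. It went from near the limit of detection in glands, at 6, 10 and 15 counts (0.234, 0.327 and 0.508 CPM), to 19.7, 3.55, 19.8, 20.9 and 60.9 CPM in B1/P tumors. P/Rbf tumors held 2.70, 9.81, 3.64, 111 and 0.885 CPM, a span of 126-fold, with tumor 287822 far above the others. B1/P/Rbf tumors held 4.40, 0.459, 1.82, 1.95 and 1.3 CPM. The log2 fold change over gland was 6.11 ± 1.60 in B1/P (edgeR adjusted p = 0.00732) and 6.15 ± 1.60 in P/Rbf tumors (0.00612), and 2.46 ± 1.35 in B1/P/Rbf tumors, which did not pass (0.164) except in a fit of those groups alone (0.0244). Without tumor 287822 the P/Rbf value was 3.56 (SE 0.99, edgeR adjusted p = 0.00984), and without tumor 248662 the B1/P value was 5.47 (adjusted p = 0.0132). All B1/P and all P/Rbf tumors lay above every gland. Of the B1/P/Rbf tumors, 4 of 5 did.

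Between tumor models, Nrg1 was called in B1/P/Rbf against B1/P tumors, with a log2 fold change of −3.65 ± 1.11 (edgeR adjusted p = 0.0321), and 4 of the 5 B1/P/Rbf tumors lay below the lowest B1/P tumor. This call was lost when any of 5 libraries was left out: B1/P/Rbf tumors 208857 (adjusted p = 0.0732), 208863 (0.0672), 209490 (0.0618) and 210906 (0.0689), and B1/P tumor 248662 (0.0766). The library-set term gave an adjusted p of 0.110. P/Rbf and B1/P tumors had nearly the same Nrg1 mean, at 25.6 and 25 CPM. The log2 fold change was 0.04 ± 0.99 (edgeR adjusted p = 0.986), but without tumor 287822 it was −2.55 (adjusted p = 0.0386). Without that tumor, B1/P/Rbf against gland had an adjusted p of 0.0455 for Nrg1, with a log2 fold change of 2.46.

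Ereg, at chr5:91074622-91093646, was the scarcest ligand, with 2 to 7 counts in glands and 3 to 36 counts in tumors. Its highest level was 1.07 CPM. All 5 B1/P tumors, at 12 to 36 counts, lay above every gland, and the log2 fold change was 2.06 ± 0.79 with an edgeR adjusted p of 0.0534. DESeq2 (0.0311), limma-voom (0.0184), no TMM (0.0253) and a fit of these groups alone (0.0474) called it, as did leaving out any of 5 tumors (0.0369 to 0.0468: 208857, 246361, 255232, 287842 and 290860). The other edgeR adjusted p values of Ereg were between 0.212 and 0.371, and limma-voom gave 0.0425 in P/Rbf against gland.

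**Figure D3:**
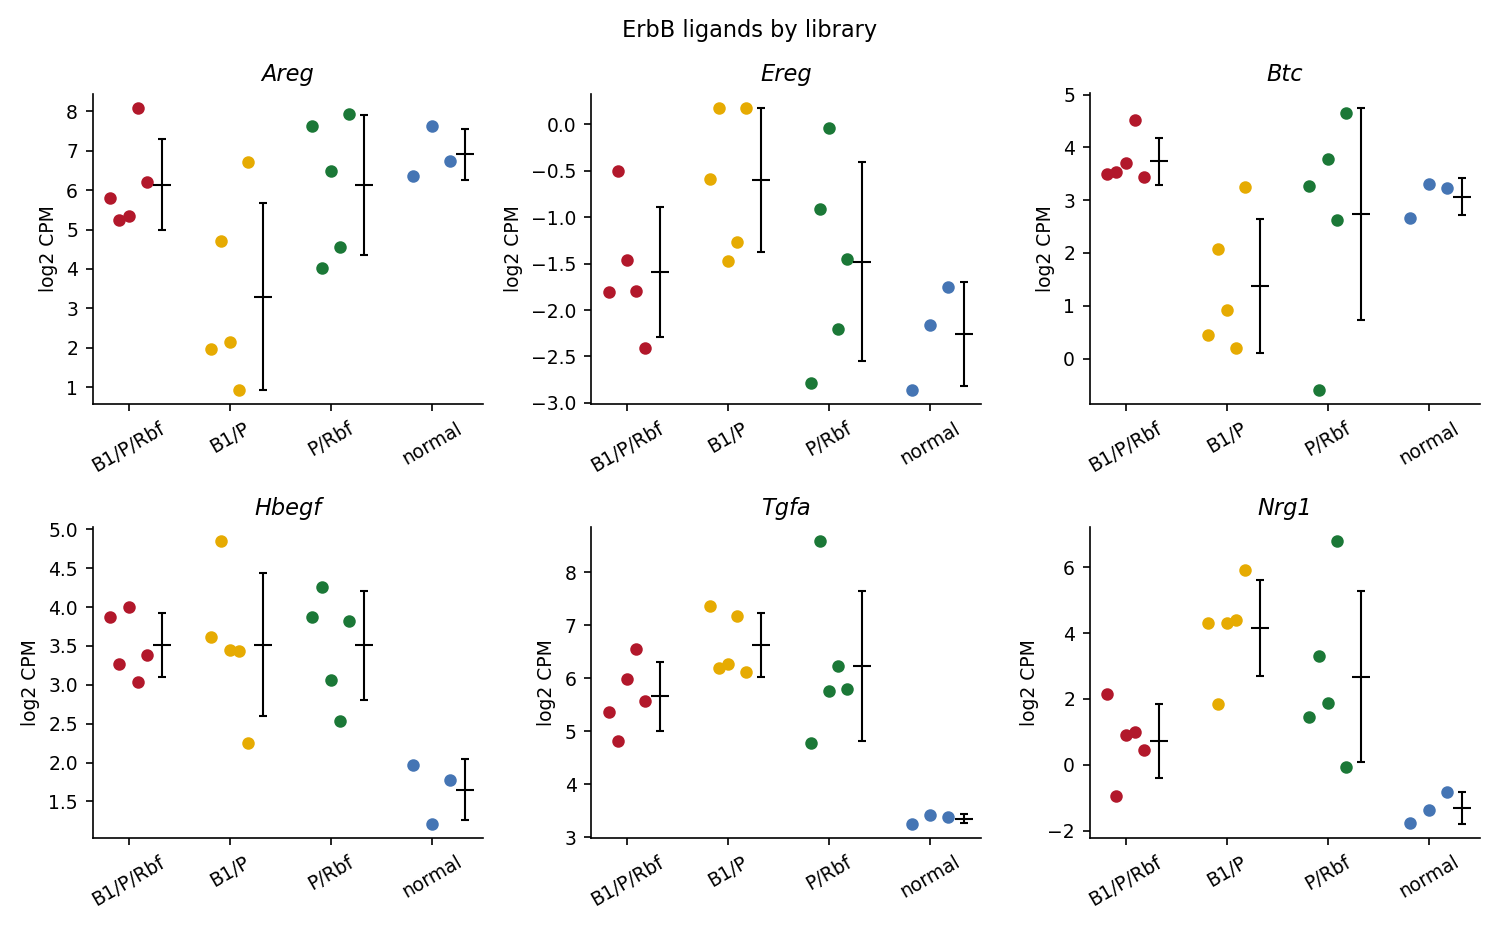
Log2 CPM (prior count of 2) of the 6 ligands in each library of the 3 tumor models (n = 5 each) and normal gland (n = 3), with 1 point per mouse and the bar at right showing mean ± SD. Tumors lie above all glands for Hbegf and Tgfa, B1/P/Rbf tumors lie above all B1/P tumors for Btc, and the spread among B1/P and P/Rbf tumors is wide for Areg and Nrg1.

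Per length, Areg led the transcripts of the 6 ligands in most libraries and Tgfa in 4 tumors. Areg made up 94.8%, 97.4% and 95.1% of the 6 ligands in the glands and 67.5% to 91.3% in B1/P/Rbf tumors. Among B1/P tumors it made up 9.45%, 53.7%, 18.0%, 5.31% and 81.3%, and Tgfa led in tumors 225068 (76.1%), 246361 (59.0%) and 255232 (78.6%). In P/Rbf tumors Areg led in 4 of 5 (43.7% to 94.4%), and Tgfa led in tumor 287845, with 76.1%. Nrg1 reached 24.2% in tumor 287822 and was below 10% elsewhere. These shares depend on the scaling, since the exons of Areg span 1.22 kb and those of Tgfa 6.49 kb. With length the Areg share averaged 95.8% ± 1.38 (SD) in glands (n = 3), 33.6% ± 32.8 in B1/P, 79.6% ± 8.75 in B1/P/Rbf and 66.4% ± 34.3 in P/Rbf tumors (n = 5 each). Without it the averages were 83.9% ± 4.81, 13.6% ± 17.5, 47.2% ± 14.1 and 43.5% ± 34.5, in the same order. By CPM alone 3 further tumors had another leader among the 6 ligands. Tgfa exceeded Areg in tumors 208863 (63.6 against 40.9 CPM) and 225070 (72.7 against 26.3 CPM), and Nrg1 led in tumor 287822, at 111 CPM.

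**Figure D4:**
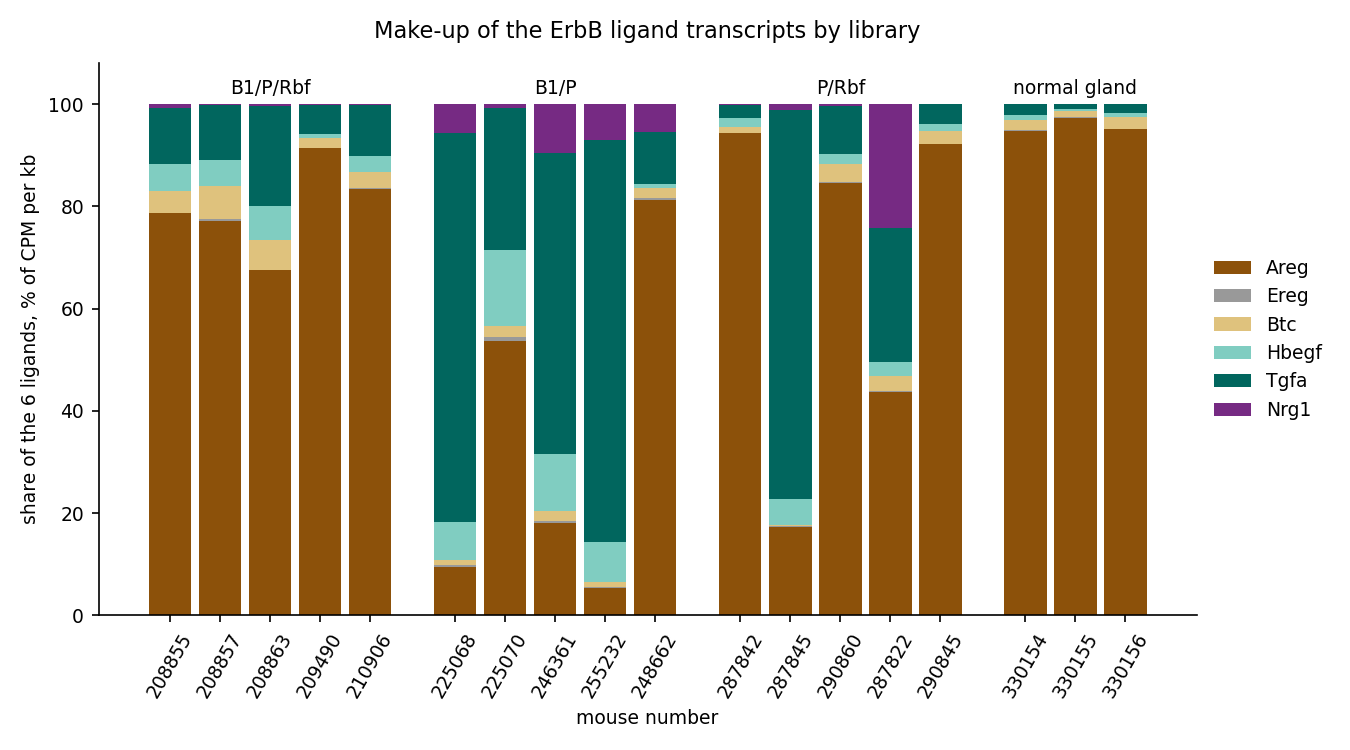
Share of each ligand in the summed CPM per kb of exon of the 6 ligands, with 1 bar per library by mouse number. Areg holds most of the bar in every gland and B1/P/Rbf tumor, and Tgfa does in 3 B1/P tumors and in P/Rbf tumor 287845.

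Counted over the 9 members other than Egfr, the gland comparisons held most calls. In B1/P tumors 4 of 9 were called higher than in gland (Erbb2, Hbegf, Tgfa and Nrg1) and none lower, where the called share of all genes was 33.8%, 16.8% higher and 16.9% lower. For B1/P/Rbf tumors 3 were higher (Erbb2, Hbegf and Tgfa) and 1 lower (Erbb4), beside 37.0% of all genes, 17.1% higher and 20.0% lower. In P/Rbf tumors 4 were higher (those of B1/P tumors) and 1 lower (Erbb4), beside 37.7% of all genes, 17.4% higher and 20.3% lower. The median log2 fold change of the 9 over gland was 0.95, 0.92 and 1.13 in the 3 models, in that order, beside 0.12, 0.05 and 0.05 over all genes. The 3 comparisons share their glands. Without TMM the median of all genes moved by 0.35, 0.37 and 0.27, and no called member changed sign.

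Between tumor models the counts of called members are given as description only, beside the called shares of all genes. In B1/P/Rbf against B1/P tumors 2 of 9 were called, both lower (Erbb4 and Nrg1), beside 16.7% of all genes, 7.36% higher and 9.29% lower. In P/Rbf against B1/P tumors none of 9 was called by edgeR, 2 had an unadjusted p under 0.05, and neither DESeq2 nor limma-voom called any, while 19.2% of all genes were called, 8.43% higher and 10.8% lower. The medians of the 9 were −0.20 and 0.04, beside −0.06 and −0.05 over all genes. The 2 T121 models differed in 0.281% of all genes, 0.219% higher and 0.0625% lower in B1/P/Rbf, and the log2 fold changes of the 9 there, given without a test, were −3.69 ± 1.11 for Nrg1, −2.42 ± 1.36 for Erbb4, −1.12 ± 0.56 for Tgfa and between −0.33 and 0.34 for the other 6. The first 3 rested on single tumors. Without tumor 287822 Nrg1 was −1.10 and Erbb4 −0.73, and without tumor 287845 Tgfa was 0.048. With the library-set term Erbb4 was −0.46, Areg 1.96 and Hbegf −1.23.

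**Figure D5:**
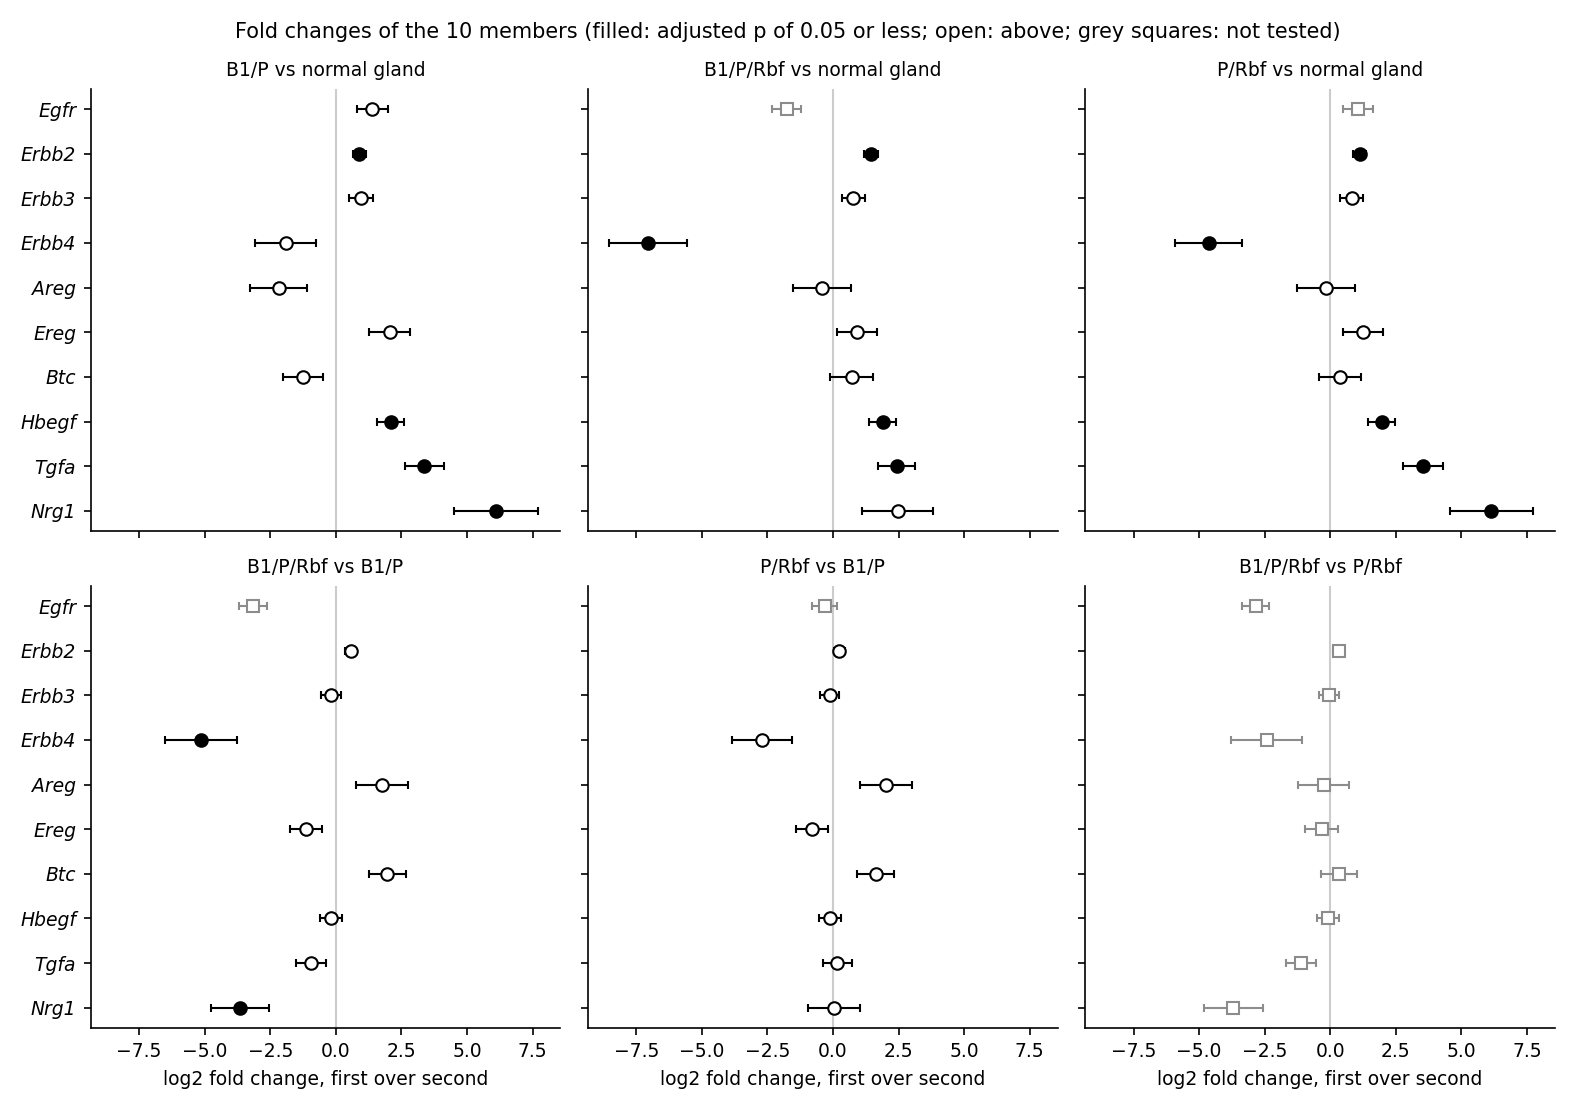
Log2 fold change ± SE of the 10 members in the 6 comparisons (first group over second), where filled circles passed an edgeR adjusted p of 0.05, open circles did not, and grey squares were not tested because the family was chosen on those tumors. Hbegf, Tgfa and Erbb2 lie right of 0 in all 3 gland comparisons, and Egfr and Nrg1 lie furthest left in the comparison of the 2 T121 models, where Nrg1 was −1.10 without tumor 287822.

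Of 5 ErbB ligands outside the 10, 4 were tested, and the last, Nrg3, had at most 1 count in any library. Epgn (epigen, an Egfr ligand at the edge of the chromosome 5 cluster) was 11.1, 59.2, 12.0, 18.5 and 5.62 CPM in B1/P/Rbf and 16.6 to 38.9 CPM in P/Rbf tumors, against 0.414 to 2.39 CPM in B1/P tumors and at most 0.687 CPM in glands. Its log2 fold change over B1/P was 3.81 ± 0.77 in B1/P/Rbf (edgeR adjusted p = 0.00364) and 4.09 ± 0.78 in P/Rbf tumors (0.00266), with no overlap. Nrg2, a neuregulin, went the other way, with 1 or 2 counts in every B1/P/Rbf tumor, 0 to 27 counts in P/Rbf tumors and 213 to 763 counts (6.31 to 19.2 CPM) in B1/P tumors. Against B1/P tumors, Nrg2 was lower by at least 147-fold in B1/P/Rbf (edgeR adjusted p = 0.000202) and lower in P/Rbf by a log2 fold change of −5.59 ± 0.89 (0.000888). Egf was at least 23.2 CPM in every gland and at most 6.33 CPM in any tumor, Nrg4 was at least 24.97 and at most 2.5 CPM, and both were called lower in all 3 models. Among these 4 genes Epgn and Nrg2 were the ones called between tumor models.

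Against B1/P tumors the called shares of all genes, 7.36% up and 9.29% down for B1/P/Rbf and 8.43% and 10.8% for P/Rbf tumors, are the background of the pathway lists, and a share near them is not a result about a list. Of 8 proteases and iRhoms that release ErbB ligands, 2 were called higher and none lower in B1/P/Rbf against B1/P tumors, and 3 higher and none lower in P/Rbf against B1/P tumors, with median log2 fold changes of 0.28 and 0.30. Adam10, the main sheddase of Btc and Egf precursors, was 862 to 1518 CPM in B1/P/Rbf and 794 to 1750.5 CPM in P/Rbf, against 133 to 316 CPM in B1/P tumors and 200 to 220 CPM in glands. Its log2 fold change over B1/P was 2.34 ± 0.28 (edgeR adjusted p = 0.000132) and 2.54 ± 0.28 (9.0e-05). Rhbdl2, a rhomboid protease, rose by 2.23 ± 0.48 (0.00522) and 2.04 ± 0.48 (0.00809). Adam17, which sheds Tgfa, Areg and Hbegf, was called in the T121 models against gland, at 1.25 ± 0.29 and 1.31 ± 0.30, and in no comparison between tumor models.

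Of 12 genes that ERK signaling is known to induce, 7 were called higher and 1 lower (Fos) in B1/P than in gland, 4 higher and none lower in B1/P/Rbf, and 5 higher and none lower in P/Rbf tumors, with median log2 fold changes of 1.79, 0.56 and 0.81. Over all genes the called shares against gland were 16.8% higher and 16.9% lower in B1/P, 17.1% and 20.0% in B1/P/Rbf, and 17.4% and 20.3% in P/Rbf tumors. Against B1/P tumors, 3 were lower and 1 higher in B1/P/Rbf, and 4 lower and 1 higher in P/Rbf. Etv5 was 168 to 497 CPM in B1/P, 6.85 to 27.5 CPM in B1/P/Rbf, 8.87 to 68.1 CPM in P/Rbf tumors and 16.4 to 19.3 CPM in glands. Its log2 fold change was −3.82 ± 0.55 in B1/P/Rbf (edgeR adjusted p = 0.000486) and −3.45 ± 0.54 in P/Rbf against B1/P tumors (0.000842). Dusp6, a phosphatase of ERK, fell by 2.02 on the log2 scale in B1/P/Rbf (SE 0.50, adjusted p = 0.0122), and Fos rose by 1.13 ± 0.26 (0.00771).

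Adaptors and inhibitors of the receptors changed less evenly. Of 18 adaptors and proximal effectors, against B1/P tumors 2 were higher and 6 lower in the B1/P/Rbf model, and 2 higher and 3 lower in P/Rbf tumors, with median log2 fold changes of −0.33 and −0.10. Grb7 is among those higher in both, and Gab1, at −1.88 ± 0.47 (edgeR adjusted p = 0.0115), was lower in B1/P/Rbf. Of 11 negative regulators, 1 was higher and 2 lower in B1/P/Rbf, and 1 higher and 1 lower in P/Rbf, against B1/P tumors. Over all genes 16.7% and 19.2% were called in either direction, so the counts of adaptors in P/Rbf tumors and of negative regulators in both models are given as description only. Lrig3 fell in both, at 0.583 to 6.65 CPM in B1/P/Rbf and 0.374 to 3.06 CPM in P/Rbf against 15.1 to 49.8 CPM in B1/P tumors (−3.45 ± 0.68, adjusted p = 0.00304, and −4.84 ± 0.73, adjusted p = 0.00069). Errfi1, a feedback inhibitor of Egfr, rose over gland in all 3 models, by 1.38 ± 0.41 in B1/P, 1.88 ± 0.42 in B1/P/Rbf and 2.27 ± 0.43 in P/Rbf tumors (edgeR adjusted p of 0.0165, 0.00233 and 0.000607). No gene of any of these lists was called between the 2 T121 models, where 0.281% of all genes were called.

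On chromosome 11, the 10 tested genes nearest to Egfr were compared in the same way. In B1/P/Rbf against B1/P tumors 1 of them was called, Egfros, which lies on the minus strand inside the span of Egfr and averaged 0.0177 and 0.949 CPM (edgeR adjusted p = 0.0099). The libraries were made with a stranded kit, but whether counting used the strand is not given in the sources used here, so its reads and those of Egfr cannot be told apart. The other 9 had log2 fold changes of −2.20 to 0.82 there and none was called, beside 16.7% of all genes. Between the T121 models none of the 10 was called, beside 0.281% of all genes, so the lack of calls is not a result about these genes. Their log2 fold changes there were between −2.96 (Egfros) and 0.61 (Plek).

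The genes whose levels followed those of a member most closely were found by the root mean square difference of log2 CPM, centred per gene, over the 18 libraries among 19185 others. For Egfr they were Gm44751 (0.82), Stard4 (0.83), Dusp14 (0.87), Lgr4 (0.87) and Shf (0.90). Lgr4 averaged 10.8 CPM in B1/P/Rbf, 84.7 CPM in B1/P, 38.6 CPM in P/Rbf tumors and 35.5 CPM in glands. For Erbb2 they were Thrap3 (0.31) and Klf10 (0.32), for Erbb3 March9 (0.26) and Cdkl3 (0.39), and for Hbegf Glis2 (0.37) and Cnnm4 (0.41). Erbb4 lay nearest to the adult beta-globin genes Hbb-bt (0.83) and Hbb-bs (0.91), which were highest in the glands. For Areg they were Slc12a2 (1.06) and Dusp10 (1.06), for Btc 4732496C06Rik (0.79) and Vipr1 (0.79), for Tgfa AC132253.6 (0.65) and Ddias (0.65), for Ereg Mib1 (0.60) and Pgam1 (0.62), and for Nrg1 Cers3 (1.27) and Gm26578 (1.3).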

How the data were processed

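Per the labels and the study's methods, total RNA was extracted from each tumor or gland, made into libraries and sequenced, and the authors trimmed the reads (cutadapt 1.18) and counted them per gene with RSEM 1.3.0. The deposited values are RSEM expected counts, which the authors neither normalized nor filtered. RSEM divides reads that match several genes, and 5.61% of values were not whole. A human reference is named in the methods, but every one of the 55450 identifiers was found in GENCODE M21 (mouse, GRCm38), which gave the positions and exon lengths used here. Both GRCh38 and mm10 appear in the submitters' processing notes, and the library kit was stranded, but whether counting used the strand is not given in the sources used here.

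Counts were rounded and fitted in R 4.3.3 with edgeR 4.0.16 (filterByExpr with a minimum count of 10, TMM, glmQLFit and glmQLFTest) on all 18 samples with the group as only term, and p values were adjusted over the 19186 genes kept. Log2 CPM used a prior count of 2. A group with at most 3 counts in every library was taken to be at the floor, and a fold against it as a bound. Levels were compared between genes per kb of exon. Relations between members were tested by 100000 permutations within models (Python 3.11.15). The fits were also tested on simulated data. Floors cover counting error only.

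The members and all gene lists were chosen with earlier results of these data known. Named genes were the members; in each list the called genes with the largest changes, at most 4 per comparison; the 5 genes nearest in pattern to Egfr and 2 to each other member; the 5 tested genes on each side of Egfr and Erbb2; and Brca1 and Trp53. Alternatives were DESeq2 1.42.0, limma-voom (limma 3.58.1) with quantile normalization, no TMM, no filter (32772 genes tested), the study's stricter filter on log2 CPM (6 or more in 6 or more samples, leaving 4549 genes), a fit of only the groups compared, a term for 2 sets of libraries (numbered 1 to 8 and 9 to 18), and leaving out each sample. No label or method names the library sets as a batch. They came from earlier work on these data, B1/P is the one group that spans both, and B1/P/Rbf lies wholly in the first.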

Additional observations from a re-analysis of the deposited data

Results flagged for a closer look

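Each member was examined in each tumor model for a library that stood apart from the other 4 by Dixon's test on log2 CPM, and 2 of 30 member and model pairs passed the 95% critical value of 0.71. Chance alone flags about 1 in 20 such groups, which is 1.5 of 30. Erbb2 was 106 CPM in B1/P/Rbf tumor 208857, beside 177 to 211 CPM in the other 4 tumors, a gap of 0.743 of the range. Btc was 22.9 CPM in B1/P/Rbf tumor 209490, beside 10.8 to 13.1 CPM in the other 4, a gap of 0.75 of the range. Without tumor 208857 the log2 fold change of Erbb2 over B1/P tumors was 0.70 (edgeR adjusted p = 0.0308), and with it 0.56 (0.0794).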

How the results depend on the processing

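No paired analysis was possible because the labels give no replicate numbers shared between groups. Of the 9 members other than Egfr, the stricter filter left 4 to test (Erbb2, Erbb3, Areg and Tgfa). None of the 4 was called in B1/P/Rbf against B1/P, where the 2 called before, Erbb4 and Nrg1, were not tested. Against gland it kept Tgfa in B1/P tumors, with Erbb2 lost (edgeR adjusted p = 0.0625). It kept both Erbb2 and Tgfa in B1/P/Rbf and in P/Rbf tumors. The calls of Hbegf, Nrg1 and Erbb4 against gland were not tested under this filter. The library-set term left 0 of 2 in B1/P/Rbf against B1/P, and 1 of 4 and 2 of 4 against gland in B1/P/Rbf and B1/P tumors. Leaving out each library gave 1 to 3 calls in B1/P/Rbf against B1/P and 0 to 2 in P/Rbf against B1/P tumors. No called member changed sign. Signs changed only where a change was not called: in P/Rbf against B1/P, Nrg1 was −1.14 in limma-voom, −0.67 with the library-set term and −2.55 to 0.68 with a library left out, Tgfa −0.49 in limma-voom and −1.0 to 0.46, Hbegf 0.10 in limma-voom, 0.68 with the library-set term and −0.34 to 0.36, and Erbb3 −0.33 to 0.20. In B1/P/Rbf against B1/P, Hbegf was 0.082 in limma-voom and −0.42 to 0.28, and Erbb3 −0.38 to 0.15. Against gland, Areg in B1/P/Rbf was 1.80 with the library-set term and −1.31 to 0.10, in P/Rbf 0.088 without TMM and −0.65 to 0.36, and Btc in P/Rbf was −0.18 to 0.68. Between the T121 models, given without a test, Tgfa was 0.048 without tumor 287845 and Areg 1.96 with the library-set term. The cause was not tested. The number of all genes called between the T121 models was 54 in edgeR, 1014 in DESeq2, 26 in limma-voom, 3 under the stricter filter, 5 with the library-set term, 0 in a fit of those groups alone and 9 to 131 with a library left out. The stricter filter tested 4549 genes in place of 19186, so its counts cannot be set directly against the others. It gave 886 for 3195 in B1/P/Rbf and 867 for 3684 in P/Rbf against B1/P. Against gland it gave 1601 for 6481 in B1/P, 1763 for 7108 in B1/P/Rbf and 1668 for 7230 in P/Rbf tumors. For P/Rbf against B1/P a fit of the groups alone gave 1763 and the library-set term 2008, which also gave 3879 for B1/P/Rbf against gland, and 4320 were called in B1/P against gland without gland 330156. At counts as low as those of Ereg and Erbb4, depth limits what can be seen.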
